A study of Homo sapiens with 5 samples.

Results

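One tumour library from mice fed food without methionine, tryptophan and niacin (the combined omission) was compared with the single library from mice fed food without tryptophan and niacin only. The comparison asks what leaving out methionine adds when tryptophan and niacin are already absent. These are 2 of the 5 mRNA libraries of the study. All genes with a mean of at least 10 counts over both libraries entered, 8567 of the 26364 listed. A further 6036 had a count but a mean under 10, and 11761 were at 0 in both libraries.

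Both tumours grew from HT-29, a single established human colon cancer line, which was cultured with all nutrients and implanted under the skin of female NOD SCID mice aged 5 weeks. These mice lack T and B cells, so the tumours were observed without adaptive immunity. Per the study's design text the foods were given for 2 weeks and the cage floor was changed every day. The other libraries came from normal food (1 library) and from methionine-free food (2 libraries), and serve below only as reference levels, as a benchmark and in the interaction test. How many mice a library stands for is not given. Each food compared here had 1 library, so the comparison has no replicate check and no p-value. All intervals on ratios are 95% exact counting intervals and cover counting error only.

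The combined-omission library held 433930 counts, the shallowest of the study, and the tryptophan/niacin-free library 613604, within a range of 433930 to 1088084 over all libraries. One count was worth 2.31 CPM (counts scaled to the depth of the library) in the former and 1.60 CPM in the latter. The sums of the 14 HT-29 and colon epithelium markers were 14399 and 14394 CPM, with none at 0. KRT8 was the largest part of both sums, at 6556 and 7156 CPM, and single markers differed in both directions. Of the 12 with a mean of at least 10 counts, 4 had a ratio interval above 1 and 2 one below 1. Over all 8567 genes the numbers were 559 and 433. The titles of the combined-omission and normal libraries follow a shorter style than the other 3 titles. If the styles mark a difference in handling, that and the food cannot be told apart in this comparison.

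Methionine is turned into S-adenosylmethionine, the methyl donor of the cell, and is recovered through the methionine cycle and a salvage route. Tryptophan and niacin both feed the synthesis of NAD, and nicotinamide N-methyltransferase joins the pathways by spending a methyl group on nicotinamide. Low oxygen stabilises the alpha subunits of hypoxia-inducible factor (HIF), which then raise the transcription of genes for glucose uptake, glycolysis, angiogenesis and collagen processing. Tumours under the skin commonly hold poorly perfused zones where this response is on. HT-29 cells can also form mucus, the product of goblet cells in the normal colon.

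A gene was placed beyond the size rule when its log2 CPM difference was at least 2-fold and the counting interval of its scaled count ratio excluded 1. In the combined omission 156 genes were higher (1.82% of those measured) and 144 were lower (1.68%), 300 in all (3.5%). Most rest on few counts: the median of the mean count was 21.8 for the higher and 19.8 for the lower genes. The same rule placed 575 of 8864 genes (6.49%) between the 2 methionine-free libraries, which share a food, 214 of them higher in replicate 2 (2.41%) and 361 lower (4.07%). The number of genes beyond the rule was therefore below that between libraries of 1 food. With the whole interval required to lie beyond 2-fold, 24 genes were higher (0.28%) and 0 were lower, against 25 (0.282%) between the methionine-free libraries. Of these 24 genes, 13 belonged to the hypoxia, glycolysis and oxygen-sensing lists and 3 to the mucin and goblet cell list. The former held 72 and the latter 18 of the 8567 measured genes. The corresponding numbers among the 25 of the methionine-free pair were 0 and 3.

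**Figure D1:**
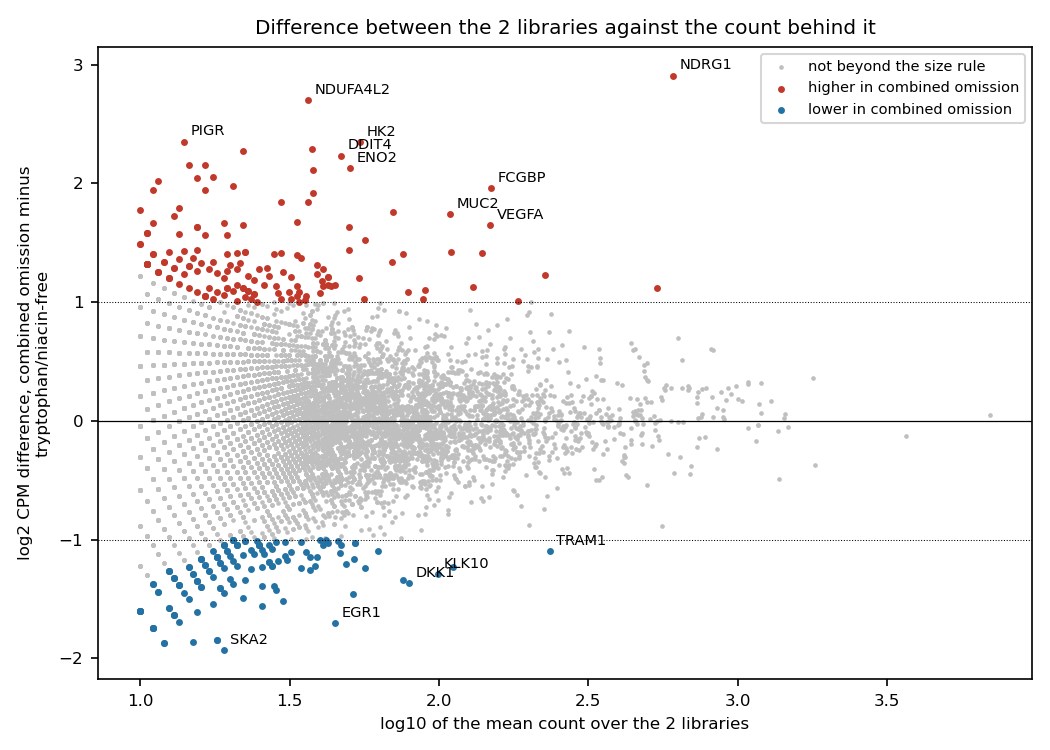
Each point is 1 of 8567 genes, with the log10 of its mean count over both libraries on the x axis and the log2 CPM difference (combined omission minus tryptophan/niacin-free) on the y axis; dotted lines mark 2-fold. NDRG1 stands apart at a log2 difference of 2.91, and most of the 156 higher and 144 lower genes lie at low counts.

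Genes induced by low oxygen formed the top of the comparison. NDRG1, a stress gene induced by hypoxia, had 196 counts in the tryptophan/niacin-free library and 1023 in the combined omission, or 313 and 2367 CPM. Its level was 3368 CPM on normal food and 778 and 649 CPM in the methionine-free libraries. The combined omission and normal food were thus high, and the other 3 libraries were low. The ratio of combined omission over tryptophan/niacin-free was 7.57 (6.49 to 8.86). Of the 15 genes with the firmest intervals in the higher direction, 9 belonged to the hypoxia, glycolysis and oxygen-sensing lists, and of the 15 in the lower direction 0 did. Those lists held 72 of the 8567 measured genes.

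The list of hypoxia-induced stress and vascular genes had 33 members, of which 22 were measured. All 22 measured members lay above 0 on the log2 scale, with a median difference of 1.19 beside −0.00 over all genes. Beyond the size rule 13 were higher and 0 lower. Between the methionine-free libraries the same list had a median of −0.05. The 9 measured members not beyond the rule ran from 0.07 to 0.99. The 11 other members had a mean under 10 counts in these libraries.

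Among the stress and metabolism genes of that list, NDUFA4L2, a mitochondrial protein that dampens respiration under low oxygen, stood at 19.2 CPM in the tryptophan/niacin-free library and 141 CPM in the combined omission. It stood at 169 CPM on normal food and 84 and 100 CPM in the methionine-free libraries. Its ratio was 7.37 (3.93 to 15) and rests on 12 and 61 counts. DDIT4, an inhibitor of mTOR signalling induced by several stresses, was at 33.5 and 169 CPM, with 216 CPM on normal food and 98.7 and 97.1 CPM without methionine (ratio 5.04, 3.07 to 8.62). For both genes the tryptophan/niacin-free library was the lowest of the 5. The mitophagy receptor BNIP3L, with 8 and 27 counts, was at 12.8 and 62.5 CPM (ratio 4.89, 2.16 to 12.5). CA9, a membrane carbonic anhydrase, was at 121 and 331 CPM (ratio 2.73, 2.05 to 3.65). CA9 reached 377 CPM on normal food and 197 and 186 CPM without methionine, so its order of libraries was that of NDRG1.

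Among the secreted and matrix genes, VEGFA, the main angiogenic growth factor, was at 148 CPM in the tryptophan/niacin-free library and 472 CPM in the combined omission. Its levels were 685 CPM on normal food and 179 and 155 CPM without methionine, and its ratio was 3.18 (2.48 to 4.11). ADM, which encodes the vasodilator peptide adrenomedullin, was at 16.0 and 71.7 CPM (ratio 4.49, 2.15 to 10.3), with 113 CPM on normal food. Of the 4 measured enzymes of the list that hydroxylate collagen, 3 were higher beyond the rule. PLOD2, a lysyl hydroxylase, was at 49.5 and 160 CPM (ratio 3.23, 2.08 to 5.10). P4HA1, a prolyl hydroxylase subunit, was at 59.1 and 176 CPM (ratio 2.98, 1.98 to 4.54), and P4HA2, its homologue, at 55.9 and 127 CPM (ratio 2.28, 1.46 to 3.59). The lysyl hydroxylase PLOD1, named after its values were seen, was at 63.8 and 67.1 CPM (ratio 1.05, 0.628 to 1.74), the lowest difference of the list. EFNA1, a membrane ligand of Eph receptors, was at 38.3 and 104 CPM (ratio 2.72, 1.62 to 4.66). The creatine transporter SLC6A8 and the sterol regulator INSIG2, named after their values were seen, completed the 13 higher members with ratios whose intervals ran from 1.94 to 2.87 and from 1.29 to 3.64.

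**Figure D2:**
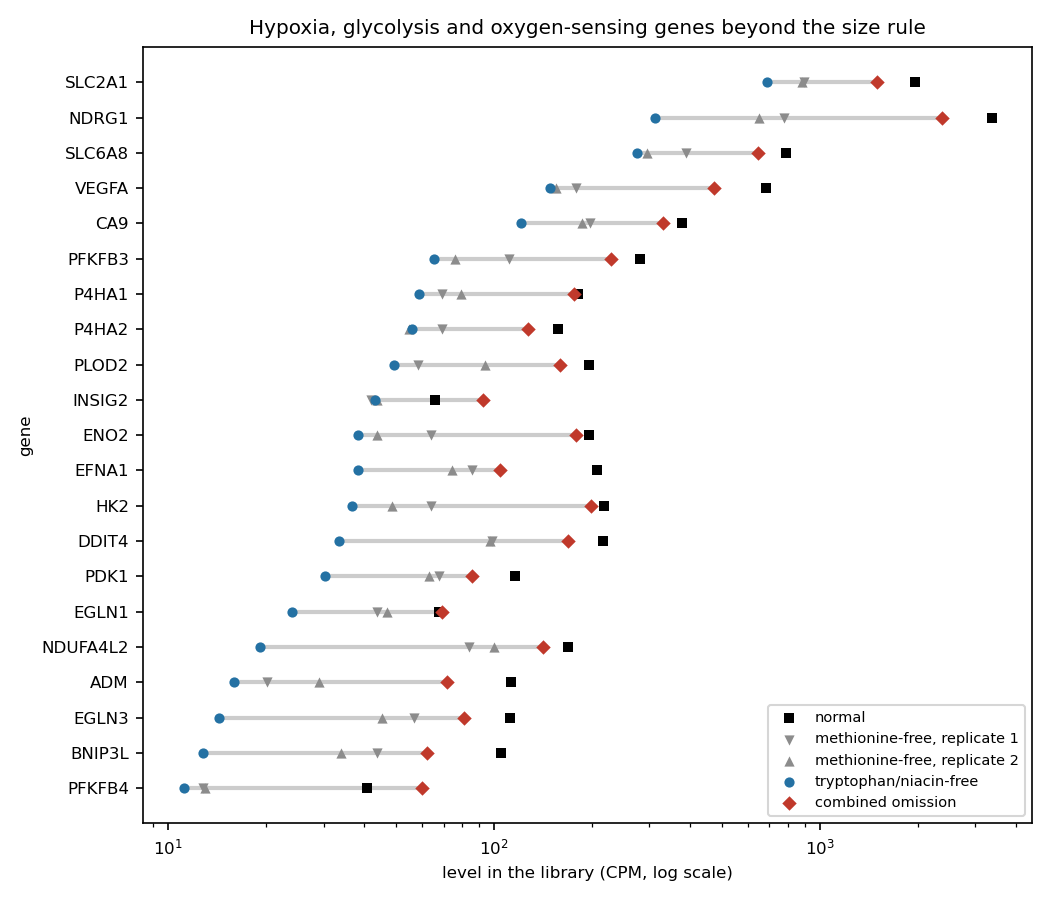
Level in CPM (x axis, log scale) of the 21 hypoxia, glycolysis and oxygen-sensing genes beyond the size rule (y axis) in each of the 5 libraries, 1 marker a library, with a grey bar between the compared pair. For each gene the combined-omission marker lies to the right of the tryptophan/niacin-free marker, which was the criterion for showing the gene, and for NDRG1 it lies at 2367 against 313 CPM with normal food at 3368 CPM.

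The genes of the HIF pathway itself differed less. Of 14 members 12 were measured, 9 of them above 0, with a median of 0.32, and 2 were higher and 0 lower beyond the rule. These 2 are prolyl hydroxylases, which mark HIF alpha subunits for breakdown and are themselves HIF targets. EGLN3 was at 14.4 CPM in the tryptophan/niacin-free library and 81.0 CPM in the combined omission, from 9 and 35 counts, a ratio of 5.64 (2.66 to 13.3). EGLN1 was at 23.9 and 69.4 CPM (ratio 2.90, 1.51 to 5.80). EGLN2, the third member of that family, was at 52.7 and 57.8 CPM (ratio 1.1, 0.626 to 1.9). The alpha subunit HIF1A was at 44.7 and 81.0 CPM, a log2 difference of 0.82 and a ratio of 1.81 (1.07 to 3.09), under 2-fold. EPAS1, which encodes the alpha subunit HIF-2α, was at 68.6 and 76.3 CPM (ratio 1.11, 0.685 to 1.79). HIF-alpha protein is controlled mainly by its breakdown, which transcript counts do not show. VHL, the adaptor that recognises hydroxylated HIF, was at 38.3 and 48.6 CPM (ratio 1.27, 0.672 to 2.38). HIF3A and ARNT2 had 0 counts in both libraries.

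In the glycolysis list 38 of 44 members were measured, 30 of them above 0, with a median of 0.34, and 6 were higher and 0 lower beyond the rule. HK2, the hexokinase that starts glycolysis, was at 36.7 CPM in the tryptophan/niacin-free library and 199 CPM in the combined omission, with 218 CPM on normal food and 63.9 and 48.5 CPM without methionine. Its ratio was 5.42 (3.39 to 9). ENO2, an enolase isoform, was at 38.3 and 178 CPM (ratio 4.65, 2.91 to 7.69), with 196 CPM on normal food. Normal food and the combined omission were the high libraries for both. SLC2A1, the glucose transporter GLUT1, was at 686 and 1497 CPM (ratio 2.18, 1.93 to 2.47).

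The regulators of glycolysis had the highest median within that list, 1.41 over 5 measured members, against 0.52 for the 16 genes of uptake and glycolysis, 0.23 for the 4 lactate genes, 0.09 for the 7 pentose phosphate genes and 0.00 for the 6 glycogen genes. PFKFB3, which makes the activator of phosphofructokinase fructose-2,6-bisphosphate, was at 65.4 and 229 CPM (ratio 3.50, 2.41 to 5.17). PFKFB4, an enzyme of the same family, was at 11.2 and 60.1 CPM from 7 and 26 counts (ratio 5.38, 2.28 to 14.7). PDK1, a kinase that inhibits pyruvate dehydrogenase, was at 30.3 and 85.6 CPM (ratio 2.82, 1.58 to 5.20). The most abundant member, GAPDH, differed less, at 3026 and 3898 CPM (ratio 1.29, 1.21 to 1.38), and its counting interval also excluded 1. In all 16 members of this list had a counting interval above 1 and 1 had one below 1. Over all 8567 measured genes the numbers were 559 and 433. Between the methionine-free libraries the glycolysis list had a median of 0.18 over 37 members.

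Together the 3 lists held 72 measured genes, of which 21 were higher and 0 lower beyond the rule. Over all 8567 measured genes 1.82% were higher. The 21 genes made up 13.5% of the 156 higher genes, while the lists held 72 of the 8567 measured. The lists were chosen with earlier results of these data known. Because the tumours are bulk samples, fewer cells that express such genes and less RNA per cell cannot be told apart.

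The proximal promoters of these genes are shown because HIF binds a short core, ACGTG, near many of its targets. RefSeq promoters (GRCh38.p14, a later build than that of the counting) were searched for ACGTG on both strands in the 250 bases before the start of the gene. Of the 21 higher genes of the 3 lists 17 had a promoter in the table, and 8 of these (47.1%) held the core. It was held by 23 of 61 measured members of the lists (37.7%), by 25.1% of 6662 measured genes and by 18.7% of all 27305 promoters. Among all higher genes 36 of 114 (31.6%) held it, and among all lower genes 22 of 107 (20.6%). The E-box CACGTG, which contains the core, was in 0 of the 17, in 9.88% of measured genes and in 6.49% of all promoters. The amino acid response element TTGCATCA, a site of ATF4, was also in 0 of the 17. It was in 0.330% of measured genes and in 0.820% of all promoters. At such shares a result of 0 among 17 promoters says little for either motif. A match describes the letters of the window and does not show binding. Among the higher genes of the 3 lists, the 5 with the firmest ratios that hold the core within the 150 bases before the start are printed 5′ to 3′ on the strand of the gene, with the core in capitals (as CACGT where it lies on the other strand). They are HK2 at chr2:74833977-74834126 (plus strand), DDIT4 at chr10:72273774-72273923 (plus strand), ENO2 at chr12:6914430-6914579 (plus strand), PLOD2 at chr3:146161185-146161334 (minus strand) and CA9 at chr9:35673778-35673927 (plus strand).
HK2: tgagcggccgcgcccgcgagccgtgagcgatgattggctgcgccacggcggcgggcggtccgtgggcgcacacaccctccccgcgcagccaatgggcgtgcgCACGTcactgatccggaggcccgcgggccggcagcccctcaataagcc
DDIT4: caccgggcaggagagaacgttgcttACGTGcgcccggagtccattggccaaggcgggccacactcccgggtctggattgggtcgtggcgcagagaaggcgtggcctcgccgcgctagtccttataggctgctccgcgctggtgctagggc
ENO2: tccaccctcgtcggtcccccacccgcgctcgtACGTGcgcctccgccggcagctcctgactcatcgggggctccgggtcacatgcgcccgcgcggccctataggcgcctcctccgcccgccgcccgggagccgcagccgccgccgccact
PLOD2: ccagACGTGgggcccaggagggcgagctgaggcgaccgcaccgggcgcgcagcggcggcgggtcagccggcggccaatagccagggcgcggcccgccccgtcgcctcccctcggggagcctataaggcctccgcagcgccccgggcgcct
CA9: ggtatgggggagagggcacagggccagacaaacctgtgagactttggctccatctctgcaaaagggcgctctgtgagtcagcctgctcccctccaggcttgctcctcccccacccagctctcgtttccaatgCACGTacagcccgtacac
The core lies 13 bases before the start in CA9, 43 in HK2, 113 in ENO2, 120 in DDIT4 and 141 in PLOD2, counted to the match nearest to the start.

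Mucus genes were also among the highest. Of the 29 members of the mucin and goblet cell list 18 were measured, 16 of them above 0, with a median of 0.79, and 5 were higher and 0 lower beyond the rule. Between the methionine-free libraries this list had a median of −0.37 over the 16 of these 18 members also measured there. The 8 mucins among them had one of −1.27, so its genes also differ between libraries of 1 food. FCGBP, a large protein cross-linked into mucus, was at 128 CPM in the tryptophan/niacin-free library and 507 CPM in the combined omission (ratio 3.97, 3.06 to 5.19), with 312 CPM on normal food and 245 and 102 CPM without methionine. MUC2, the main gel-forming mucin of the colon, was at 104 and 354 CPM (ratio 3.41, 2.54 to 4.63), with 243 CPM on normal food and 128 and 37.2 CPM without methionine. For both the combined omission was the highest of the 5 libraries, and the methionine-free replicates lay more than 2-fold apart.

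PIGR, which transports immunoglobulin A through epithelial cells, was at 7.98 and 53.2 CPM, a ratio of 6.67 (2.48 to 22.5) from 5 and 23 counts. REG4, a secreted lectin, was at 84.6 and 229 CPM (ratio 2.71, 1.92 to 3.85), and here the methionine-free libraries, at 228 and 293 CPM, stood with the combined omission. SPDEF, a transcription factor of goblet cell maturation, was at 31.9 and 67.1 CPM (ratio 2.1, 1.15 to 3.92). MUC5B, another gel-forming mucin, had 4 and 15 counts and so fell under the minimum mean. LYZ, lysozyme, the most abundant member, was at 2282 and 2027 CPM (ratio 0.888, 0.815 to 0.967), slightly lower in the combined omission. Colonocyte identity genes followed less, with a median of 0.24 over 17 of 32 members and 1 higher, the adhesion molecule CEACAM5, from 6 and 14 counts (ratio 3.38, 1.22 to 10.7). LGALS4, an abundant gut galectin, was at 1044 and 1492 CPM (ratio 1.43, 1.28 to 1.60).

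Of the remaining genes among the 15 firmest in the higher direction, CCDC183 was at 25.5 and 136 CPM (ratio 5.35, 3.04 to 9.95). Its antisense partner CCDC183-AS1 was at 31.9 and 109 CPM (ratio 3.41, 1.98 to 6.07). The strand setting of the counting is not given, so reads of these overlapping genes cannot be told apart. FAM13A was at 28.7 and 134 CPM (ratio 4.67, 2.71 to 8.42), and the zinc finger factor MZF1 at 31.9 and 130 CPM (ratio 4.06, 2.40 to 7.14).

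**Figure D3:**
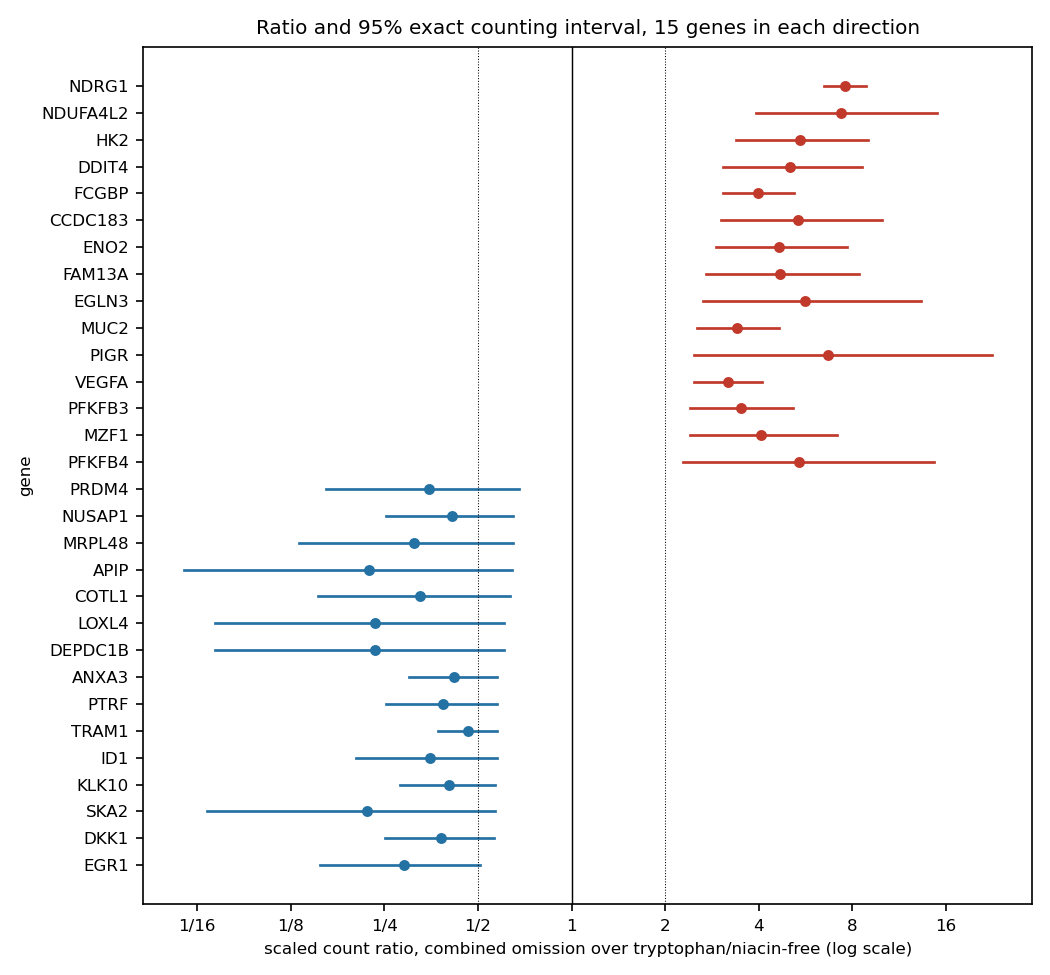
Scaled count ratio, combined omission over tryptophan/niacin-free (x axis, log scale), of the 15 genes in each direction with the firmest intervals (y axis); points are ratios, bars are 95% exact counting intervals, and dotted lines mark 2-fold. The 15 higher genes have intervals wholly beyond 2-fold, from NDRG1 (6.49 to 8.86) downwards, while each of the 15 lower genes, such as EGR1, has an interval that reaches inside 2-fold.

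Genes lower in the combined omission were less sharply set apart. EGR1, an immediate early transcription factor, had 75 counts in the tryptophan/niacin-free library and 15 in the combined omission, or 120 and 34.7 CPM, 3.45-fold lower (1.96 to 6.47). It was at 31.5 CPM on normal food and 51.2 and 45.3 CPM without methionine, so the tryptophan/niacin-free library was the one that stood apart. DKK1, a secreted WNT antagonist, was at 201 and 76.3 CPM, 2.63-fold lower (1.78 to 3.99), with 55.6 CPM on normal food and 133 and 134 CPM without methionine. KLK10, a secreted protease, was at 247 and 99.5 CPM, 2.49-fold lower (1.76 to 3.57). ID1, an inhibitor of differentiation factors, was at 132 and 46.3 CPM, 2.86-fold lower (1.74 to 4.93). The tryptophan/niacin-free library was the highest of the 5 for EGR1, DKK1 and ID1, while for KLK10 methionine-free replicate 2 was at 249 CPM.

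TRAM1, part of the translocon that brings proteins into the endoplasmic reticulum, rested on the most counts among these, 356 and 114. It was at 568 and 264 CPM, 2.15-fold lower (1.74 to 2.68). ANXA3, an annexin, was at 276 and 116 CPM (2.39-fold lower, 1.73 to 3.34), and PTRF, the caveolar coat protein cavin-1, at 192 and 74.0 CPM (2.59-fold lower, 1.74 to 3.95). The spindle protein SKA2, the mitosis-linked DEPDC1B and LOXL4, a lysyl oxidase family member, had 5 counts each in the combined omission against 33, 31 and 31. Their lower limits were 1.77-fold for SKA2 and 1.65-fold for each of the other two. COTL1, an actin-binding protein, was 3.07-fold lower (1.58 to 6.55), the mitochondrial ribosomal protein MRPL48 3.22-fold lower (1.54 to 7.52), and the zinc finger gene PRDM4 2.89-fold lower (1.47 to 6.18).

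DNA replication and mitosis genes lay below 0 as a group. Of 56 members 50 were measured, 43 of them below 0, with a median of −0.34, and 0 were higher and 5 lower beyond the rule. Over all measured genes 4309 of 8567 lay below 0. The list median was −0.31 for the 26 replication genes and −0.36 for the 24 mitosis genes. It was 0.05 over the 47 of these 50 members that were also measured between the methionine-free libraries. NUSAP1, which bundles spindle microtubules, was at 140 CPM in the tryptophan/niacin-free library and 57.8 CPM in the combined omission (2.43-fold lower, 1.54 to 3.95). It was at 119 CPM on normal food and 141 and 146 CPM without methionine, so the combined omission was the low library. KIF23, a kinesin of cell division, was at 126 and 60.1 CPM (2.1-fold lower, 1.33 to 3.40). The replication factors CDC45 and RFC2 and the cell cycle transcription factor E2F8 were 2.85-fold (1.29 to 7.13), 2.18-fold (1.12 to 4.59) and 3.79-fold lower (1.29 to 15.1), from 8, 12 and 4 counts in the combined omission. On normal food KIF23, CDC45, RFC2 and E2F8 were at 92.7, 45.4, 28.7 and 7.42 CPM. In the combined omission these genes were at 60.1, 18.5, 27.8 and 9.25 CPM, so RFC2 and E2F8 lay near normal food. MKI67, the proliferation marker and the most abundant member, was at 562 and 502 CPM (1.12-fold lower, 0.942 to 1.33), a difference within counting error. Its level was 418 CPM on normal food and 409 and 172 CPM without methionine.

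The genes of methionine handling were read next, since methionine is what separates these foods. Of 25 members 15 were measured, 5 of them above 0, with a median of −0.24, and 0 were higher and 2 lower beyond the rule. APIP, a dehydratase of the methionine salvage route, had 26 counts in the tryptophan/niacin-free library and 4 in the combined omission, or 41.5 and 9.25 CPM (4.48-fold lower, 1.56 to 17.7). It was at 29.7 CPM on normal food and 32.9 and 42.1 CPM without methionine, which makes the combined omission the single low library.

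The core enzymes of the cycle differed little. MAT2A, which makes S-adenosylmethionine, was at 578 and 518 CPM (1.11-fold lower, 0.941 to 1.32), and its partner MAT2B at 59.1 and 83.3 CPM (ratio 1.41, 0.866 to 2.29). AHCY, which removes S-adenosylhomocysteine, was at 429 and 356 CPM (1.21-fold lower, 0.985 to 1.48). The methionine synthase MTR was at 76.6 and 62.5 CPM (1.23-fold lower, 0.75 to 2.04), and the salvage phosphorylase MTAP at 115 and 99.5 CPM (1.16-fold lower, 0.781 to 1.73). Each of these intervals includes 1. MAT1A, BHMT, BHMT2 and GNMT, known mainly from the liver, had 0 counts in both libraries.

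The users of the methyl donor were level: of 38 methyltransferases 33 were measured, 18 above 0, with a median of 0.05 and 0 beyond the rule in either direction. Polyamine genes, which spend decarboxylated S-adenosylmethionine, had 9 of 10 members measured, all 9 below 0, with a median of −0.24 and 0 beyond the rule. Over all measured genes 4309 of 8567 lay below 0. Between the methionine-free libraries the polyamine list had a median of 0.22, of similar size. Transsulfuration, glutathione and NRF2 genes had a median of 0.01 over 25 of 37 members, and serine and folate genes one of −0.20 over 16 of 23, each with 0 beyond the rule.

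The step that links both nutrient groups could not be read at this depth. NNMT, which methylates nicotinamide, had 5 counts in the tryptophan/niacin-free library and 1 in the combined omission, or 7.98 and 2.31 CPM, with an interval of the ratio from 0.00613 to 2.59. In the NAD and nicotinamide list 11 of 22 members were measured, with a median of 0.08, and 1 was higher. That gene, SIRT2, an NAD-dependent deacetylase, was at 46.3 and 113 CPM (ratio 2.45, 1.52 to 4.02), with 71.3 to 81.6 CPM in the other 3 libraries. QPRT, which makes NAD from the tryptophan product quinolinate, was at 30.3 and 57.8 CPM (ratio 1.91, 1.01 to 3.66). NAPRT and NAMPT, which start NAD synthesis from niacin and from nicotinamide, were at 225 and 238 CPM (ratio 1.06, 0.813 to 1.37) and at 76.6 and 71.7 CPM (ratio 0.936, 0.576 to 1.5).

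Of the 24 tryptophan and kynurenine genes 10 were measured, with a median of 0.22 and 0 beyond the rule. IDO1, IDO2 and TDO2, the enzymes that open the tryptophan ring, had 0 counts in both libraries. A count of 0 allows up to 3 counts, or 6.94 CPM in the combined omission and 4.79 CPM in the tryptophan/niacin-free library. AFMID, the next enzyme of that route, was at 31.9 and 60.1 CPM (ratio 1.88, 1.01 to 3.56), and the kynurenine receptor AHR at 54.3 and 55.5 CPM (ratio 1.02, 0.581 to 1.78).

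Genes of the response to amino acid shortage lay on both sides of 0. Of the 43 integrated stress response genes 36 were measured, 18 above 0, with a median of 0.00, and 3 were higher beyond the rule. These were DDIT4 (given above, since it is in both lists), GDF15 and DDIT3. GDF15, a stress cytokine, was at 31.9 CPM in the tryptophan/niacin-free library and 123 CPM in the combined omission (ratio 3.84, 2.26 to 6.78), with 149 CPM on normal food and 43.9 and 80.9 CPM without methionine. DDIT3, the gene of the stress-induced factor CHOP, was at 16.0 and 53.2 CPM from 10 and 23 counts (ratio 3.33, 1.53 to 7.85), with 57.5 CPM on normal food. In the combined omission all 3 lay closer to normal food than to any of the other libraries. SLC7A1, a cationic amino acid transporter and the most abundant member, was at 396 and 354 CPM (1.12-fold lower, 0.911 to 1.38). ATF4 and its target asparagine synthetase ASNS, named after their values were seen, had log2 differences of −0.22 and −0.62, both with intervals that include 1.

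Other lists of amino acid supply were level as well. The aminoacyl-tRNA synthetases had a median of −0.01 over 34 of 37 members with 0 higher and 1 lower, MARS2, the mitochondrial methionyl-tRNA synthetase, from 22 and 4 counts (3.79-fold lower, 1.29 to 15.1). Amino acid transporters had a median of 0.12 over 20 of 27, with SLC3A1, a subunit of the cystine transporter, at 30.3 and 78.7 CPM (ratio 2.59, 1.44 to 4.81). Genes of mTORC1 and its sensors had a median of 0.09 over 32 of 43 with 0 beyond the rule. Autophagy genes had one of −0.19 over 34 of 45 with 2 higher, BNIP3L and the protease ATG4B, which processes LC3 (51.1 and 123 CPM, ratio 2.40, 1.52 to 3.85).

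**Figure D4:**
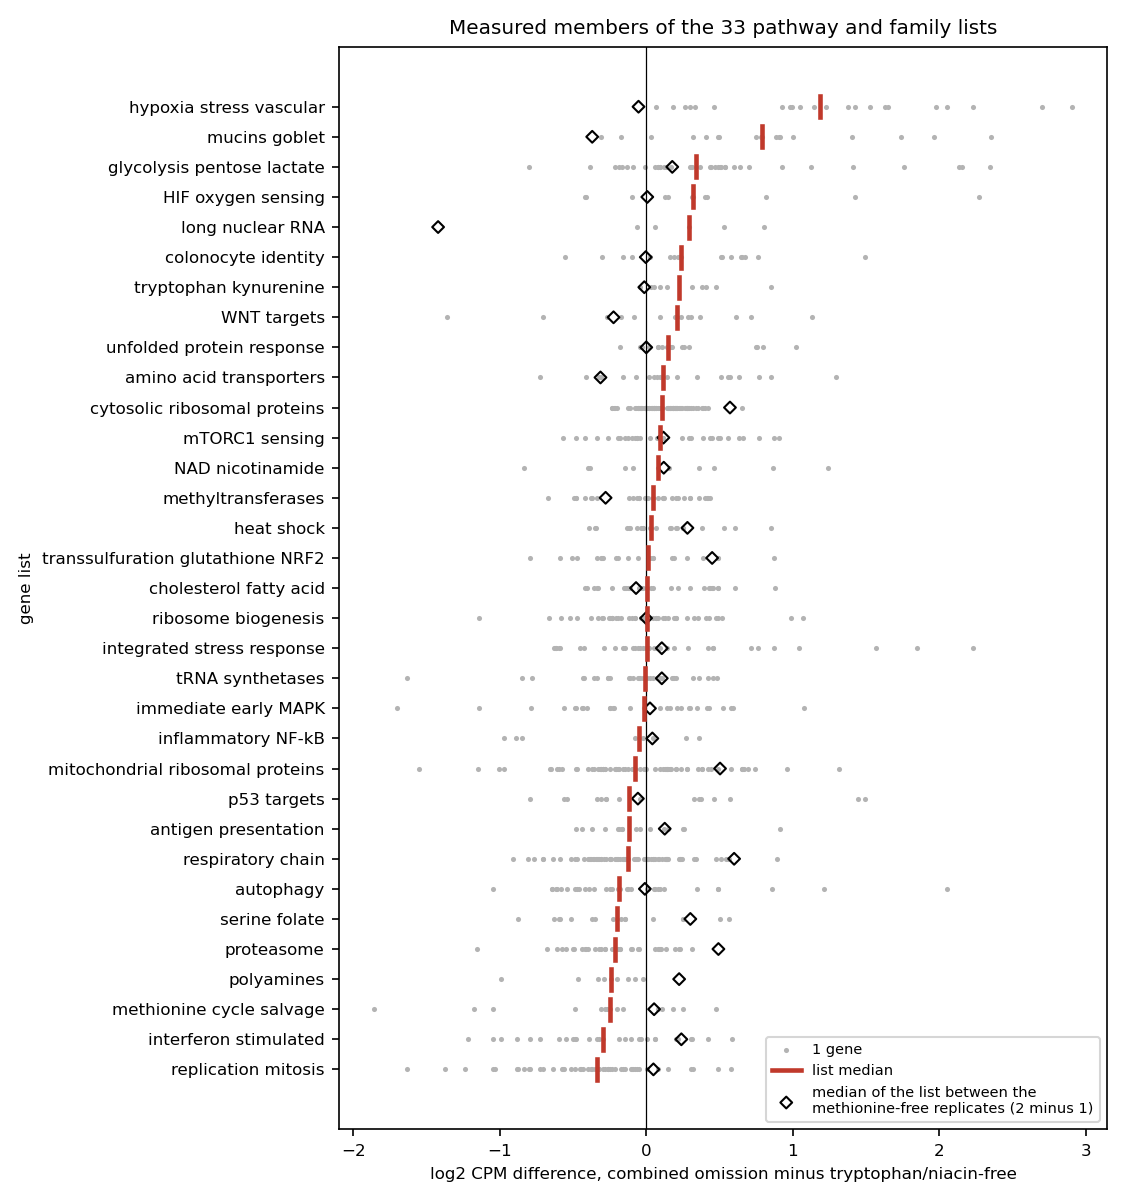
Log2 CPM difference, combined omission minus tryptophan/niacin-free (x axis), of every measured member (grey points) of 33 gene lists (y axis), with the list median as a red bar and the median of the same list between the methionine-free replicates as an open diamond. The hypoxia list (median 1.19) and the mucin list (0.79) have the highest medians and the replication and mitosis list the lowest (−0.34).

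Among the lists of protein and energy metabolism, the 79 cytosolic ribosomal proteins, all of them measured, had a median of 0.10, and 70 of 77 mitochondrial ones had −0.07, with 0 and 4 genes beyond the rule. Besides MRPL48, given above, the mitochondrial MRPL22 and MRPS23 were 2.41-fold (1.07 to 6.13) and 2.13-fold lower (1.06 to 4.67), and MRPS36 was higher, from 7 and 14 counts (ratio 2.9, 1.09 to 8.49). The benchmark medians of these lists, 0.57 and 0.50, were larger. Respiratory chain genes had a median of −0.13 over 77 of 79, with 0 beyond the rule, and within it the 16 ATP synthase subunits had −0.27, with 2 above 0. Proteasome subunits had a median of −0.21 over 34 of 34, with 1 lower, the ATPase subunit PSMC2, at 128 and 55.5 CPM (2.30-fold lower, 1.44 to 3.80). The benchmark medians of these lists were 0.60 and 0.49. Medians of this size therefore lie inside what separated the libraries of 1 food.

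Interferon-stimulated genes had a median of −0.29 over 29 of 43 members, 20 of them below 0, with 0 higher and 2 lower. Over all 8567 measured genes 4309 lay below 0 and 1.68% were lower beyond the rule. Between the methionine-free libraries the interferon list had a median of 0.24. IFI44, an interferon-induced protein, was at 68.6 and 27.8 CPM (2.47-fold lower, 1.28 to 5.15), and PARP9, which takes part in interferon signalling, at 99 and 46.3 CPM (2.14-fold lower, 1.27 to 3.74). IFI44 was at 33.4 CPM on normal food and 40.2 and 72.8 CPM without methionine. PARP9 was at 94.6 CPM on normal food and 87.7 and 74.4 CPM without methionine. For antigen presentation 16 of 21 genes were measured, with a median of −0.12 and 0 beyond the rule. Among immediate early genes and MAPK feedback genes (29 of 38 measured, median −0.02) JUND was higher (ratio 2.17, 1.36 to 3.51) and EGR1 and KLF10 were lower. KLF10, an early target of TGF-beta, was at 95.8 and 41.6 CPM (2.30-fold lower, 1.34 to 4.14). WNT targets had a median of 0.21 over 15 of 28, with the Eph receptor EPHB3 higher (ratio 2.26, 1.44 to 3.58) and DKK1 lower. Unfolded protein response genes had a median of 0.15 over 19 of 21, with HERPUD1, of endoplasmic reticulum quality control, higher (ratio 2.1, 1.28 to 3.49).

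Long nuclear noncoding RNAs, a list of 6 with 5 measured, had a median of 0.29, with 4 above 0 and 0 beyond the rule. NEAT1, the scaffold of paraspeckles, was at 552 CPM in the tryptophan/niacin-free library and 800 CPM in the combined omission (ratio 1.45, 1.25 to 1.69), with 971 CPM on normal food and 404 and 149 CPM without methionine. Normal food and the combined omission were thus the high libraries for it as well. Between the methionine-free libraries this list had a median of −1.42. That is the pair in which the mucins had −1.27 and the hypoxia list −0.05, and the part of what separates these libraries in the mucin result was not tested.

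In the remaining lists few genes lay beyond the rule. Ribosome biogenesis genes had a median of 0.00 over 49 of 52, with RRP1 higher (ratio 2.21, 1.2 to 4.18) and WDR75 lower (2.32-fold, 1.25 to 4.56). The p53 targets had −0.12 over 16 of 20, and 0.08 with no minimum count. PLK3, a stress-responsive kinase, was higher among them (ratio 3.04, 1.37 to 7.24), as was TIGAR, which restrains glycolysis, from 6 and 14 counts (ratio 3.38, 1.22 to 10.7). Cholesterol and fatty acid synthesis (0.00 over 31 of 37), heat shock (0.03 over 23 of 25) and NF-kB (−0.05 over 8 of 24) had 0 genes beyond the rule.

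Markers of other cell types were few in both libraries. Summed levels, the tryptophan/niacin-free library first, were 20.7 and 16.2 CPM for 10 fibroblast markers (8 and 9 at 0), 39.9 and 34.7 CPM for 10 leukocyte markers (7 and 8 at 0), and 0 for all 6 erythroid markers. The 8 endothelial markers summed to 20.7 and 48.6 CPM, with 6 and 7 at 0, and in the combined omission the whole sum came from ENG, a TGF-beta co-receptor (17.6 and 48.6 CPM, ratio 2.77, 1.28 to 6.36). The 6 smooth muscle and pericyte markers summed to 200 and 396 CPM, with 2 and 3 at 0, mostly through CSPG4, a proteoglycan (164 and 363 CPM, ratio 2.21, 1.71 to 2.86). In the methionine-free libraries ENG was at 31.1 and 11.3 CPM and CSPG4 at 175 and 68.0 CPM, so both also differ between libraries of 1 food. The 12 skeletal muscle markers summed to 115 and 97.2 CPM, with 6 and 9 at 0. Adipocyte markers (6) summed to 19.2 and 27.8 CPM, and keratinocyte markers (8) to 20.7 and 23.1 CPM. Among the muscle markers the near-identical myosins MYH1, MYH2 and MYH4, named after their values were seen, had 14, 15 and 12 counts in the tryptophan/niacin-free library and 0 in the combined omission. How mouse reads were handled is not given, and the part of other cells in the results above was not tested.

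Whether leaving out methionine went with the same difference when tryptophan and niacin were in the food was put to a test of the interaction. It compares the combined omission minus tryptophan/niacin-free with methionine-free minus normal, by edgeR's quasi-likelihood test on all 5 libraries. Its spread comes from the methionine-free pair alone, 1 residual degree of freedom, and the lone libraries are assumed to vary like that pair. Of 10005 genes 43 passed (0.43%) at an adjusted p under 0.05, 42 of them (0.42%) with a positive interaction and 1, DKK1, with a negative one. Of the 43, 39 were measured between the 2 compared libraries, where 34 were higher and 1 lower beyond the size rule. For LPIN3, ULK1, MUC12 and TNS1 that difference was 0.89, 0.86, 0.91 and 0.78, under 2-fold. Their methionine-free minus normal difference was −1.99, −1.76, −1.80 and −1.72, the larger part of the interaction. At an unadjusted p under 0.05 the interaction test gave 645 genes, of which 452 had a positive interaction. This contrast sets the short-titled libraries against the other 3, so that food and handling, if the styles differ in it, cannot be told apart here either.

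Of the 43 genes, 15 belonged to the hypoxia, glycolysis and oxygen-sensing lists, 5 to the mucin and goblet cell list and 23 to neither. Of the members tested, 10 of 23 hypoxia, 4 of 38 glycolysis, 1 of 12 oxygen-sensing and 5 of 19 mucin genes passed, beside 0.43% of all genes. NDRG1 had an interaction of 5.16 on the log2 scale (SE 0.909, edgeR adjusted p = 2.43e-05) and HK2 one of 4.39 (SE 0.681, edgeR adjusted p = 1.21e-06). For both, methionine-free libraries lay below normal food, and the combined omission lay above the tryptophan/niacin-free library. VEGFA (3.70, edgeR adjusted p = 0.00018), ADM (4.34, 2.43e-05) and EGLN3 (3.62, 0.00105) had the same layout. Of the mucus genes, PIGR (5.37, edgeR adjusted p = 2.43e-05), MUC2 (3.34, 0.000398) and FCGBP (2.84, 0.012) passed. PIGR rests on 3 and 8 counts in the methionine-free libraries and 5 in the tryptophan/niacin-free library. The methionine-free replicates differed by −1.70 on the log2 scale for MUC2 and by −1.24 for FCGBP. Because the spread is pooled across genes, their SEs of 0.665 and 0.682 do not reflect these gaps. CA9 (2.42, edgeR adjusted p = 0.0728), PDK1 (2.32, 0.12) and SLC2A1 (2.26, 0.389) did not pass, and neither did EGR1 (−2.39, 0.141) or APIP (−2.48, 0.442). DKK1, the 1 gene in the lower direction, was at −2.66 (SE 0.680, edgeR adjusted p = 0.028). None of the 18 methionine cycle genes, 12 NAD genes and 10 tryptophan genes tested passed; their median interactions were −0.46, 0.16 and 0.26.

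**Figure D5:**
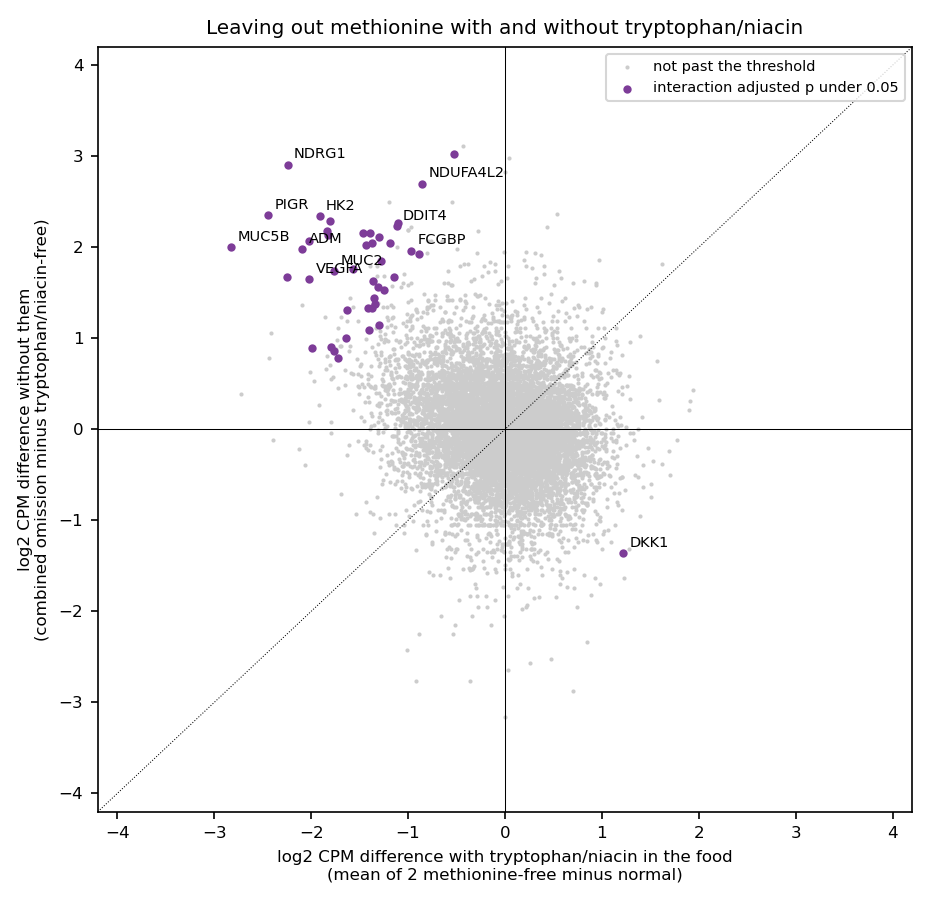
Each point is 1 of 10005 genes, with the mean of both methionine-free libraries minus normal food on the x axis and the combined omission minus tryptophan/niacin-free on the y axis, both as log2 CPM differences; purple points passed the interaction test and the dotted line marks equal differences. The 42 genes in the higher direction, among them NDRG1 and HK2, lie above the dotted line, mostly at the upper left, and DKK1 lies below it.

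All 42 genes in the higher direction kept a positive interaction when either methionine-free library was left out. This tells little, because they were selected in the same libraries with interactions of at least 2.51 and the lone libraries stayed in. DESeq2, which estimates the spread of each gene in another way, called 2 of them, and limma-voom called 42 genes, 36 of them shared.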

How the data were processed

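Tumour mRNA was sequenced in 5 libraries made with a stranded kit, per the labels' protocols. The authors deposited expected counts (estimated counts, with decimals in 15.2% to 17.6% of the values above 0) per gene symbol, 1 file a library. Per the submitters' processing notes, the build was hg19 and the tools were Subread 2.0.0 with featureCounts, TopHat2 2.1.1, Bowtie2 2.2.8 and SAMtools 0.1.18. Not given in the sources used here are the annotation, the strand setting, the treatment of multiply placed reads and the handling of mouse reads. Genes with near-identical copies or overlapping partners are therefore uncertain.

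Groups came from the treatment labels. The members and gene lists were chosen with earlier results of these data known. Expected counts were rounded. Scaling used TMM factors (0.926 to 1.04) over the 10005 genes that filterByExpr kept. Differences are log2 CPM with a prior count of 2. The size rule was a minimum of 2-fold together with a scaled count ratio whose exact 95% Clopper-Pearson interval (conditional binomial) excludes 1. It sets library against library and says nothing of variation between tumours. The interaction used edgeR 4.0.16 (quasi-likelihood test, biological coefficient of variation 0.207, infinite prior degrees of freedom, Benjamini-Hochberg adjustment over 10005 genes) in R 4.3.3. Nothing says that separate mice gave the methionine-free libraries, so its p-values rest only on the spread within that pair, which may be technical. That spread was pooled across genes, so a gene's own gap between the replicates did not enter its p-value. The comparison shares its libraries with the interaction, so neither is independent of the other.

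The text names the 15 genes in each direction whose interval bound lies farthest from a ratio of 1. It also names up to 8 members beyond the rule in each of 42 lists (33 of pathways and families, 9 of cell type markers) where useful with the most abundant member, the measured members of the methionine, NAD, oxygen-sensing and tryptophan lists where useful, and genes that passed the interaction test. Others are marked in the text. Scripts were tested on simulated data. Alternatives were total-count scaling, DESeq2 1.42.0 size factors and test, limma-voom 3.58.1, other priors, minimums, folds and intervals, and each methionine-free library left out. One member of the methionine list beyond the rule is counted but not reported here by name.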

Additional observations from a re-analysis of the deposited data

Results flagged for a closer look

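In the test of the difference between both methionine contrasts, 43 genes differed between food with and without tryptophan and niacin (edgeR's quasi-likelihood test with Benjamini-Hochberg adjustment). All values below are interactions on the log2 scale, and the contrast coincides with the title styles of the libraries.

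Among hypoxia, glycolysis and oxygen-sensing genes, values were 5.16 for NDRG1, 4.39 for HK2, 4.34 for ADM, 4.08 for ENO2, 4.06 for PFKFB4, 3.74 for NDUFA4L2, 3.70 for VEGFA, 3.70 for BNIP3L, 3.62 for EGLN3, 3.47 for DDIT4, 3.39 for PFKFB3, 3.04 for PLOD2, 2.85 for P4HA1, 2.81 for EFNA1 and 2.52 for P4HA2. Among mucus genes they were 6.42 for MUC5B, 5.37 for PIGR, 3.34 for MUC2, 2.84 for FCGBP and 2.73 for MUC12. MUC5B had 4 counts in the tryptophan/niacin-free library, 15 in the combined omission, 33 on normal food and 1 in each methionine-free library. PIGR and PFKFB4 had 5 and 7 counts in the tryptophan/niacin-free library. In the methionine-free libraries PIGR had 3 and 8 counts and PFKFB4 7 and 8.

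Of the genes in neither group, CCDC183 was at 4.18, its antisense partner CCDC183-AS1 at 3.89, FAM13A at 3.55, SPAG4 at 4.00, KDM7A at 3.57, GDF15 at 3.18, KLHL24 at 3.15, NXPH4 at 3.04, DDIT3 at 3.04, MZF1 at 2.94, LPIN3 at 2.92, PIGZ at 2.86, PAN2 at 2.76, SLC11A2 at 2.76, ULK1 at 2.67, MGAM2 at 2.59, TNS1 at 2.53 and ANO9 at 2.51. EPOR (5.32), PPFIA4 (5.27), PPP1R1B (4.85) and SLC6A20 (3.94) rest on 3, 2, 1 and 5 counts in the tryptophan/niacin-free library. In the methionine-free libraries EPOR had 1 and 2 counts, PPFIA4 4 and 1, and SLC6A20 8 and 3. SPAG4 had 6 counts in the tryptophan/niacin-free library and 8 and 10 in the methionine-free libraries. DKK1 was at −2.66.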

How the results depend on the processing

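No paired analysis was possible because the labels give no replicate numbers and each food compared had 1 library. Counts of genes beyond the rule depended on its settings. With a mean of at least 20 counts there were 86 higher and 72 lower, 158 in all, and 351 between the methionine-free libraries. With no minimum 254 were higher. At 1.5-fold there were 399 higher and 315 lower, 714 in all, and 1477 between the methionine-free libraries. With a 99% interval 58 were lower and 170 were called in all, 65.9% of them higher in place of 52%. With the whole interval beyond 2-fold there were 24 higher and 0 lower, 24 in all, against 25 between the methionine-free libraries, and 15 of the 30 genes named for their firm intervals met it. Total-count scaling, which moves the median of all genes from −0.00 to −0.04, left 45.7% of the called genes in the higher direction. The direction of each of the 30 genes held under the scalings, rounding and prior tried. DESeq2 called 2 genes for the interaction, 2 of them higher, and 63 at an unadjusted p under 0.05. Total-count scaling called 39, no filter 39 and limma-voom 42, of which 38, 38 and 36 were shared with the 43. DKK1 was not among those called with total-count scaling or DESeq2. No named interaction changed sign, which tells little, as the genes were selected in the same libraries for passing the test. Without methionine-free replicate 1, 7 of 43 moved by more than their spread. The cause of these differences was not tested. Depth limits genes of under about 10 counts, NNMT among them.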
